A study of Mus musculus with 18 samples.

Results

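The genes described here are the neutrophil-attracting CXC chemokines Cxcl1, Cxcl2, Cxcl3 and Cxcl5 and their receptor Cxcr2, taken by gene name from a table of 54532 genes. All 5 were found. Their transcripts were followed in 3 kinds of cells isolated from mouse liver. MPH are primary hepatocytes, BECs are the epithelial cells of the bile ducts, and the Kupffer-like cells stand for the macrophages that live in the liver sinusoids. Each kind was taken from mice after bile duct ligation (BDL), an operation that blocks bile flow, and from mice after a sham operation (Sham). This gave 6 groups of 3 libraries of polyadenylated RNA, 18 in all. Strain, genotype, age, the time after ligation and the purification of the cells were not given in the sources used here. Nothing in the labels says that the libraries of a group came from separate mice, so p-values rest on a spread between libraries that may be technical.

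The values are FPKM, in which the fragments of a gene are scaled by its exon length in kilobases and by the size of the library. The recovered depth was 15451625 to 20577889 reads per library. The 11 measured hepatocyte markers summed to between 48486 and 107153 FPKM in BDL MPH and between 39746 and 110238 FPKM in Sham MPH, and to at most 3655 FPKM in any other library. The 10 biliary markers summed to at least 2670 FPKM in every BECs library and to at most 146 FPKM elsewhere. The 10 Kupffer cell markers did not separate the preparations in this way: they summed to between 1801 and 10006 FPKM in BDL Kupffer-like cells, against 4480 to 5604 FPKM in Sham Kupffer-like cells. In MPH the same 10 markers summed to 925 to 3762 FPKM after BDL and 1519 to 5192 FPKM after Sham, so the MPH libraries carried macrophage transcripts as well. In whole preparations such as these, fewer cells of a type and less RNA per cell cannot be told apart.

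CXCR2 is a G protein-coupled receptor that neutrophils carry on their surface and that guides them along gradients of the chemokines CXCL1, CXCL2, CXCL3 and CXCL5. These ligands share a glutamate-leucine-arginine motif before their first cysteines, and their genes are classical targets of NF-kappa-B, which is switched on by interleukin 1, tumour necrosis factor and bacterial products. In the cholestatic liver they are known for drawing neutrophils toward areas of bile injury, and they can be made by epithelial cells and macrophages alike.

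The 4 ligand genes lie on the plus strand of chromosome 5 within a cluster of 7 CXC chemokine genes that spans 146.6 kb in GRCm38 (chr5:90759360-90905938). In order along the chromosome the cluster holds Cxcl5 (chr5:90759360-90761624), Ppbp, Pf4, Cxcl3 (chr5:90786103-90789600), Cxcl15, Cxcl1 (chr5:90891241-90893115) and Cxcl2 (chr5:90903871-90905938). Cxcl1 ends 10756 bases before Cxcl2 begins. Cxcr2 lies apart, on the plus strand of chromosome 1 (chr1:74153989-74161246). All 5 are protein-coding genes in the GENCODE M21 annotation.

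RefSeq promoters of build GRCm38.p6 covered 4 of the 5 genes, and those of 3 ligands are shown because they share one exact sequence just upstream of the start. The lines give the last 120 bases before the RefSeq start, 5′ to 3′ on the plus strand. That shared 11-base NF-kappa-B site is in capitals. The lines correspond to chr5:90891125-90891244 for Cxcl1, chr5:90903779-90903898 for Cxcl2 and chr5:90785981-90786100 for Cxcl3. The RefSeq starts differ from the GENCODE gene starts given above. The lines of Cxcl1 and Cxcl2 run past those starts (90891241 and 90903871), and that of Cxcl3 stops short of its own (90786103). Distances to the start are counted from the RefSeq start.
Cxcl1: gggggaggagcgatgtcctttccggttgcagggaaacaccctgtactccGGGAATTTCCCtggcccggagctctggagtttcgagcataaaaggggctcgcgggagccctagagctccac
Cxcl2: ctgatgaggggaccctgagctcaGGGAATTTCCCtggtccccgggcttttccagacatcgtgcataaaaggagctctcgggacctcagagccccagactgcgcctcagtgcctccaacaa
Cxcl3: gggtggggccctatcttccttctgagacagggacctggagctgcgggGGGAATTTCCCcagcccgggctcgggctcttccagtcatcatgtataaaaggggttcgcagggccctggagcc
The site, GGGAATTTCCC, reads the same on both strands apart from its middle base, so the NF-kappa-B consensus matched it on each strand in overlapping positions. It began 71 bases before the start in Cxcl1, 97 bases before it in Cxcl2 and 73 bases before it in Cxcl3. The consensus was held by 4.51% of all 32851 promoters of the same length (250 bases before to 50 after the start), and the exact 11 bases by 12 promoters, or 0.0365%. No match to the consensus lay in the Cxcr2 window. TATAAA, searched on the gene strand, was found in the Cxcl3 promoter alone among the 4, 30 bases before the start, and in 8.32% of all promoters. The NF-kappa-B consensus was searched on both strands. The AP-1 motif TGANTCA, searched on both strands, was in none of the 4 and in 7.81% of all promoters. The 3 ligand promoters shown were 69.7% to 72.6% identical in pairwise alignment. A match is a description of these letters and does not show that the site is bound.

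Cxcl2, which encodes a chemokine made early by activated macrophages and epithelial cells, was the one ligand called in all 3 cell types, and it rose after BDL in each of them. In MPH it had 91.4, 66.4 and 94.5 FPKM in the BDL libraries, against 9.49, 17.7 and 5.65 FPKM in the Sham libraries. In BECs it had 582, 457 and 367 FPKM after BDL and 59.3, 85.7 and 70.4 FPKM after Sham. Kupffer-like cells had 623, 606 and 408 FPKM after BDL and 180, 115 and 131 FPKM after Sham. Every BDL library was above every Sham library of its own cell type, and the lowest BDL value was 3.76 times the highest Sham value in MPH, 4.28 times in BECs and 2.26 times in Kupffer-like cells.

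On the log2(FPKM + 1) scale the BDL minus Sham difference of Cxcl2 was 2.95 ± 0.39 in MPH, 2.68 ± 0.23 in BECs and 1.93 ± 0.28 in the Kupffer-like cells (SE, n = 3 and 3). The adjusted p of limma, fitted over all genes that had an FPKM of at least 1 in at least 3 libraries, was 0.0278 in MPH, 0.00587 in BECs and 0.0320 in the Kupffer-like cells. A gene was called at an adjusted p under 0.05. In FPKM the mean after BDL was 7.70 times that after Sham in MPH, 6.52 times in BECs and 3.84 times in Kupffer-like cells. With its mean level Cxcl2 ranked 69th of all genes in BDL BECs, against 554th in Sham BECs, and 77th in BDL Kupffer-like cells, against 245th in Sham Kupffer-like cells.

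The call of Cxcl2 in BECs held under all 11 other settings tried and without each of the 6 libraries in turn. In MPH it was lost with no filter on low genes (adjusted p = 0.0800) and when libraries were scaled to their recovered reads (adjusted p = 0.0528). It was also lost without MPH Sham library 1 or 3 or without MPH BDL library 1, 2 or 3, with adjusted p-values of 0.0569 to 0.127 and log2 differences of 2.59 to 3.11. Those leave-one-out fits called 8 to 77 of all tested genes, against 194 with all libraries. In Kupffer-like cells the call of Cxcl2 was lost with no filter (adjusted p = 0.140), without Sham library 1, 2 or 3 and without BDL library 2, with adjusted p-values of 0.0876 to 0.185. In each of those fits 0 of all tested genes were called, so the loss was not particular to Cxcl2.

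Markers of other cells moved beside Cxcl2. The Kupffer cell markers in MPH summed to 2904, 3762 and 925 FPKM in the BDL libraries, against 5192, 2281 and 1519 FPKM in the Sham libraries. Cxcl2 in MPH was highest in BDL library 3 (94.5 FPKM), with BDL library 1 close to it (91.4 FPKM). BDL library 3 had the lowest sum of the Kupffer cell markers. It had the highest sums of the 7 monocyte markers (162 FPKM) and of the 12 neutrophil markers (305 FPKM). In BDL libraries 1 and 2 the monocyte markers summed to 81.5 and 71.9 FPKM, and the neutrophil markers to 122 and 125 FPKM. After Sham the monocyte markers summed to 9.92 to 17.6 FPKM, without overlap. The part of these markers in the Cxcl2 difference was not tested.

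**Figure D1:**
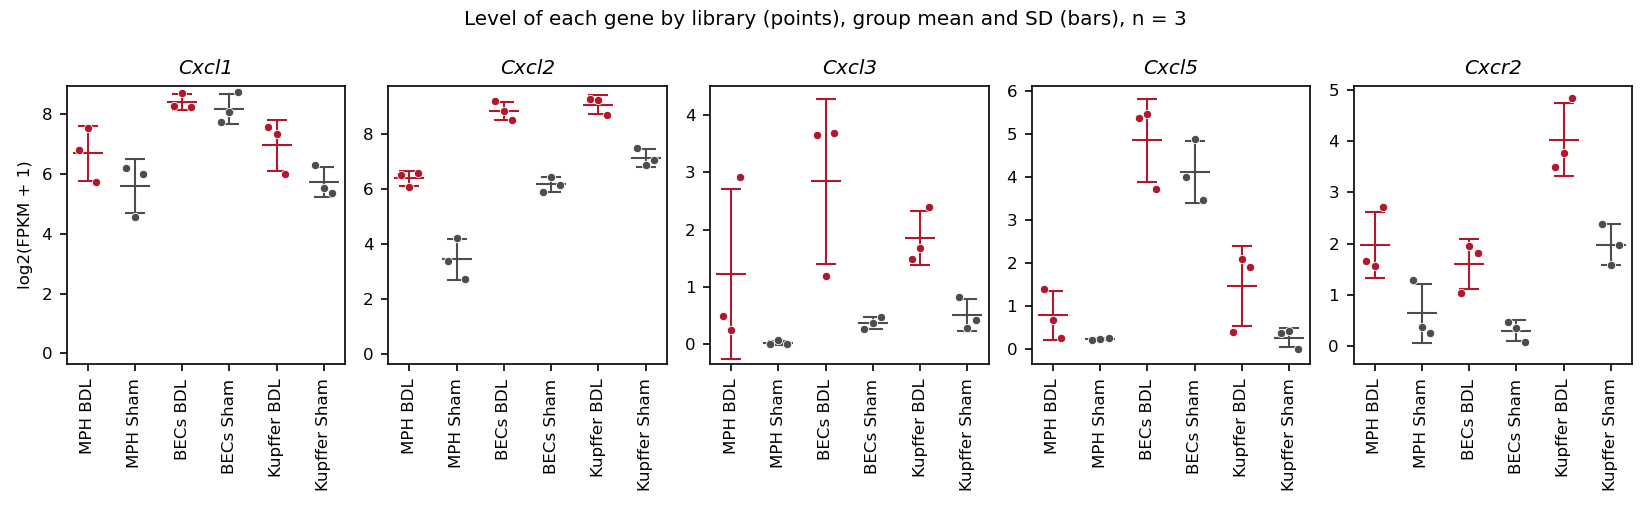
Level of each gene as log2(FPKM + 1) in every library (points), with the mean and SD of the 3 libraries of a group (bars), BDL in red and Sham in grey, each panel with its own axis. Cxcl2 shows no overlap between BDL and Sham within any of the 3 cell types, while the Cxcl1 points of BDL and Sham overlap in each.

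Cxcl1, known in mice as KC and the closest functional neighbour of Cxcl2, showed no called change in any cell type. In MPH it had 109, 183 and 51.3 FPKM after BDL and 72.3, 22.5 and 63.0 FPKM after Sham. In BECs the libraries had 308, 409 and 295 FPKM after BDL and 211, 263 and 419 FPKM after Sham. Kupffer-like cells had 188, 157 and 62.2 FPKM after BDL and 78.0, 44.8 and 39.9 FPKM after Sham. The groups overlapped in each cell type, in Kupffer-like cells through BDL library 3 only, which lay below Sham library 1. The log2 differences were 1.09 ± 0.59 in MPH (adjusted p = 0.326), 0.22 ± 0.28 in BECs (adjusted p = 0.668) and 1.23 ± 0.48 in Kupffer-like cells (adjusted p = 0.192, SE, n = 3 and 3). The interval of the difference (95%) in BECs ran from -0.45 to 0.90, and in MPH from -0.32 to 2.50. Without Kupffer BDL library 3 the Cxcl1 difference in Kupffer-like cells was 1.71 and was called, with an adjusted p of 0.0232. In that fit 2272 of 12364 tested genes were called, against 494 of 12748 with all libraries, so the gain was not particular to Cxcl1. Kupffer BDL library 3 also had the lowest Kupffer cell marker sum of its group, 1801 FPKM, against 10006 and 6814 FPKM in the other BDL libraries. Cxcl1 was already among the highest transcripts of BECs, ranking 99th in BDL BECs and 109th in Sham BECs.

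Cxcl3, a ligand whose protein is close to that of Cxcl2, had higher values after BDL in each cell type, with a wide spread, and few reads after Sham. In MPH it had 0.410, 0.184 and 6.61 FPKM after BDL (18, 8 and 248 reads) and 0, 0.0453 and 0 FPKM after Sham (0, 2 and 0 reads). A count of 0 allows up to 3 reads, or 0.0645 and 0.0993 FPKM in those Sham libraries, and limits of this kind cover counting error only. BECs had 11.7, 1.27 and 11.9 FPKM after BDL and 0.202, 0.297 and 0.389 FPKM after Sham. Kupffer-like cells had 1.82, 2.21 and 4.24 FPKM after BDL and 0.766, 0.220 and 0.339 FPKM after Sham. All BDL libraries lay above all Sham libraries within a cell type, but BDL library 3 held most of the reads in MPH, and BDL library 2 of BECs lay far below the other BDL libraries of BECs.

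Cxcl3 did not pass the test in any cell type. The log2 difference was 2.47 ± 0.67 in BECs (adjusted p = 0.0771) and 1.35 ± 0.28 in Kupffer-like cells (adjusted p = 0.0562, SE, n = 3 and 3), and in both it passed the filter on low values through its BDL libraries alone. In MPH it fell under the filter, and without the filter its difference had an interval of -0.43 to 2.84 and an adjusted p of 0.485. In BECs it was called with a pseudocount of 0.1 (adjusted p = 0.0465), with 0.01 (adjusted p = 0.0418) and with all 18 libraries in 1 model (adjusted p = 0.0353). In Kupffer-like cells it was called after quantile normalization (adjusted p = 0.0308). The Cxcl2 and Cxcl3 transcripts were 76.5% identical and shared a stretch of 110 identical bases, so reads from that stretch could be counted for either gene or for neither. The longest run shared by any other pair of the 4 ligands was 23 bases.

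Cxcl5, an epithelial chemokine in mouse tissues, was largely a transcript of BECs. BECs had 40.5, 43.0 and 12.3 FPKM after BDL and 14.9, 28.7 and 10.1 FPKM after Sham. BDL library 3 lay below Sham libraries 1 and 2, and the difference of 0.74 ± 0.56 on the log2 scale was not called (adjusted p = 0.471, SE, n = 3 and 3). In MPH it had 1.62, 0.606 and 0.200 FPKM after BDL, against 0.161, 0.170 and 0.186 FPKM (3 to 4 reads) after Sham. These groups did not overlap, though the lowest BDL value rested on 4 reads. Kupffer-like cells had 0.313, 3.28 and 2.72 FPKM after BDL and 0.293, 0.330 and 0 FPKM after Sham, where the last library had 0 reads and a limit of 0.0796 FPKM. The groups overlapped through BDL library 1. Cxcl5 fell under the filter in MPH and in Kupffer-like cells. Without the filter the interval of its difference was -0.14 to 1.24 in MPH (adjusted p = 0.450) and 0.06 to 2.34 in Kupffer-like cells (adjusted p = 0.551).

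Cxcr2, the receptor that these ligands share, was higher after BDL in each cell type, and it was called in Kupffer-like cells and in BECs. In BECs it entered the test only through its BDL libraries, and both calls were lost without the filter on low values. Kupffer-like cells had 10.2, 12.6 and 27.6 FPKM after BDL and 4.22, 1.98 and 2.94 FPKM after Sham. In BECs it had 1.06, 2.86 and 2.52 FPKM after BDL and 0.380, 0.282 and 0.0515 FPKM after Sham, the last of these from 3 reads. MPH libraries had 2.14, 1.96 and 5.59 FPKM after BDL and 1.46, 0.286 and 0.190 FPKM after Sham. The groups did not overlap in any of the cell types. Within Kupffer-like cells and within MPH the highest value was in BDL library 3 of that cell type.

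The log2 difference of Cxcr2 was 2.05 ± 0.39 in Kupffer-like cells (adjusted p = 0.0483), 1.30 ± 0.27 in BECs (adjusted p = 0.0355) and 1.34 ± 0.41 in MPH (adjusted p = 0.129, SE, n = 3 and 3). The call in Kupffer-like cells was lost with pseudocounts of 0.1 and 0.01, no filter, a common sum and recovered reads as the scale (adjusted p = 0.0522 to 0.212, differences of 1.79 to 2.39). It was also lost without Sham library 1, 2 or 3 and without BDL library 2 (adjusted p = 0.117 to 0.215). With no filter and in each of these leave-one-out fits, 0 of all tested genes were called in Kupffer-like cells. The call in BECs was lost with a pseudocount of 0.01 (difference 3.37, adjusted p = 0.0669), no filter (adjusted p = 0.114) and all 18 libraries in 1 model (adjusted p = 0.0710). Without Sham library 1, 2 or 3 its adjusted p was 0.0837 to 0.0998, and without any of the BDL libraries it fell under the filter. In MPH it was called with all 18 libraries in 1 model (adjusted p = 0.0327). That model called far more of all tested genes in MPH than the 194 of 12323 called with the MPH libraries alone. The gain was therefore not particular to Cxcr2.

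Neutrophil transcripts were higher after BDL, as Cxcr2 was, without overlap in Kupffer-like cells and in BECs but not in MPH. The 12 neutrophil markers summed to 935, 899 and 2473 FPKM in BDL Kupffer-like cells, against 343, 344 and 385 FPKM in Sham Kupffer-like cells. BECs summed to 326, 415 and 520 FPKM after BDL and 53.9, 93.0 and 153 FPKM after Sham. MPH summed to 122, 125 and 305 FPKM after BDL and 137, 82.0 and 31.6 FPKM after Sham. These sums overlapped, although the Cxcr2 values of MPH did not. S100a8 and S100a9 gave much of the sum: they averaged 393 and 658 FPKM in BDL Kupffer-like cells, where the sum averaged 1436 FPKM. BDL library 3 of Kupffer-like cells and BDL library 3 of MPH were the highest of their groups in this sum, as they were in Cxcr2. In BECs the order differed: Cxcr2 was highest in BDL library 2 while the sum was highest in BDL library 3, and Sham library 3 had the highest sum of its group with the lowest Cxcr2. Cxcr2 amounted to 1.09%, 1.40% and 1.12% of the sum in BDL Kupffer-like cells and 1.23%, 0.576% and 0.762% in Sham Kupffer-like cells, with overlapping ranges. It amounted to 0.499 ± 0.183% in BDL BECs and 0.347 ± 0.338% in Sham BECs, also overlapping, and to 1.72 ± 0.14% in BDL MPH and 0.670 ± 0.361% in Sham MPH, without overlap (SD, n = 3 each).

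Among the neutrophil markers, 3 of 11 tested rose in Kupffer-like cells (3.88% of all tested genes called), 4 of 10 in BECs (7.66%) and 0 of 11 in MPH (1.57%), where 4 had an unadjusted p under 0.05. Among those 4, Mmp8 passed the filter in MPH through its BDL libraries alone (0.436 ± 0.271 FPKM after Sham). S100a8, a calcium-binding protein abundant in neutrophils, averaged 393 ± 224 FPKM in BDL Kupffer-like cells and 86.1 ± 3.4 FPKM in Sham Kupffer-like cells (SD, n = 3 each, adjusted p = 0.0477). Mmp8, the neutrophil collagenase, averaged 19.9 ± 3.1 FPKM in BDL and 2.45 ± 0.45 FPKM in Sham Kupffer-like cells (adjusted p = 0.0208). Csf3r, the receptor for granulocyte colony-stimulating factor, averaged 22.6 ± 5.6 FPKM in BDL BECs and 4.09 ± 0.27 FPKM in Sham BECs (adjusted p = 0.00561). Ly6g, a surface protein that defines mouse neutrophils, was at 0.804, 0.499 and 5.95 FPKM in BDL Kupffer-like cells and 0.843, 1.42 and 0.945 FPKM in Sham Kupffer-like cells. It was at 0 in 1 BDL and 1 Sham library of MPH and in 1 Sham library of BECs. The part of neutrophil transcripts in the Cxcr2 differences was not tested.

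**Figure D2:**
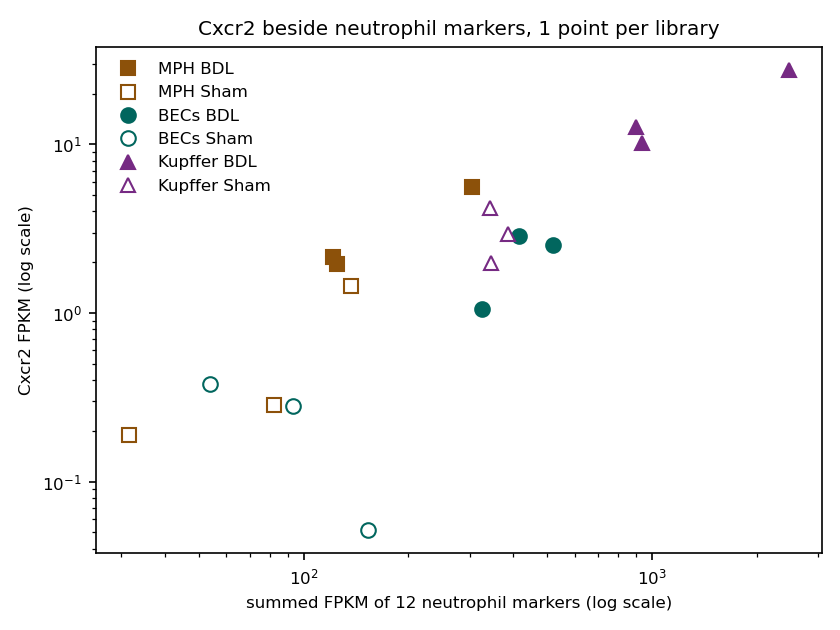
Cxcr2 FPKM against the summed FPKM of 12 neutrophil markers in each of the 18 libraries, both on log axes, with BDL as filled and Sham as open symbols. BDL library 3 of Kupffer-like cells stands highest on both axes, at 2473 FPKM of markers and 27.6 FPKM of Cxcr2.

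Counted over the 5 genes, Cxcl2 alone was called in MPH (1 of 3 tested, where 1.57% of all tested genes were called). Cxcl2 and Cxcr2 were called in BECs (2 of 5 tested, against 7.66% of all tested genes) and in Kupffer-like cells (2 of 4 tested, against 3.88%). BDL libraries lay above all Sham libraries for 2 of the 3 members tested in MPH, Cxcl2 and Cxcr2, where this held for 11.8% of all tested genes. It also held there for Cxcl3 and Cxcl5, which fell under the filter and are not part of that share. In BECs and in Kupffer-like cells it held for Cxcl2, Cxcl3 and Cxcr2, and for 13% and 16.7% of all tested genes in those cell types. Members that passed the filter through their BDL libraries alone had to differ, so these counts describe the members and are not a test of the group.

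**Figure D3:**
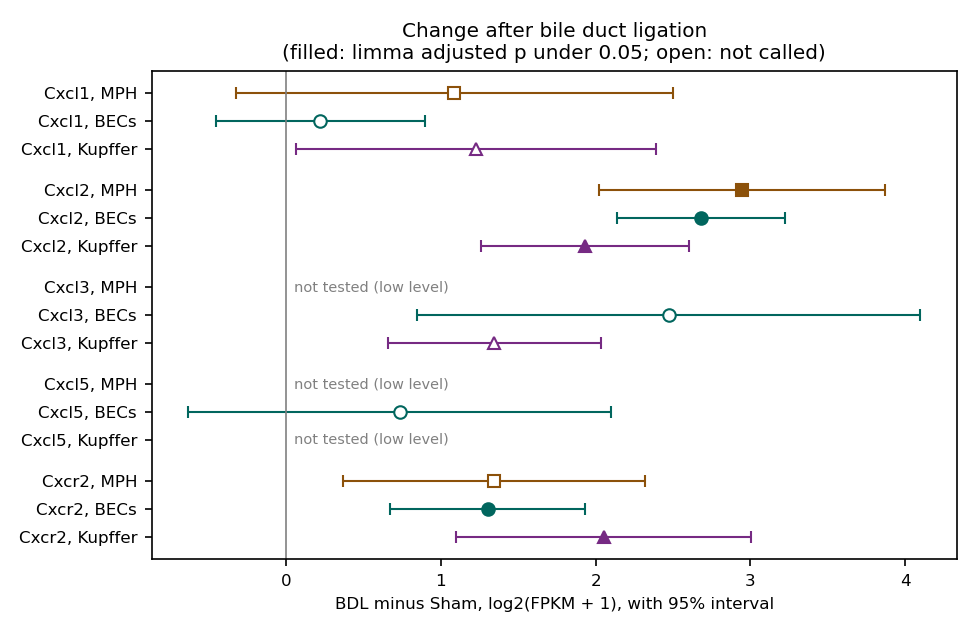
BDL minus Sham difference of each gene in each cell type on the log2(FPKM + 1) scale, with the 95% interval from limma (n = 3 and 3). Filled symbols are called at an adjusted p under 0.05: Cxcl2 in all 3 cell types and Cxcr2 in BECs and Kupffer-like cells.

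The mix of ligand transcripts is described by the FPKM ratio of Cxcl2 to Cxcl1, which separated BDL from Sham libraries in BECs and in Kupffer-like cells but not in MPH. The FPKM ratio of Cxcl2 to Cxcl1 was 1.89, 1.12 and 1.25 in BDL BECs, against 0.280, 0.326 and 0.168 in Sham BECs, without overlap. In Kupffer-like cells the ratio was 3.31, 3.85 and 6.56 after BDL and 2.31, 2.57 and 3.27 after Sham, also without overlap, but BDL library 1 and Sham library 3 nearly met. In MPH it was 0.838, 0.363 and 1.84 after BDL and 0.131, 0.786 and 0.0897 after Sham, with overlap. The ratio is a description and was not tested.

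The 4 ligands together summed to 846 ± 139 FPKM in BDL BECs and 388 ± 107 FPKM in Sham BECs. Kupffer-like cells summed to 687 ± 183 FPKM after BDL and 197 ± 54 FPKM after Sham, and MPH to 202 ± 49 FPKM after BDL and 63.7 ± 21.3 FPKM after Sham (SD, n = 3 each). Ranges of BDL and Sham did not overlap in any of the cell types. Cxcl2 made up 55.1 ± 6.0% of the sum in BDL BECs and 19.2 ± 4.5% in Sham BECs, and Cxcl1 made up 40.2 ± 6.6% in BDL BECs and 75.8 ± 7.3% in Sham BECs. In Kupffer-like cells Cxcl2 made up 80.3 ± 4.6% after BDL and 72.6 ± 3.5% after Sham.

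**Figure D4:**
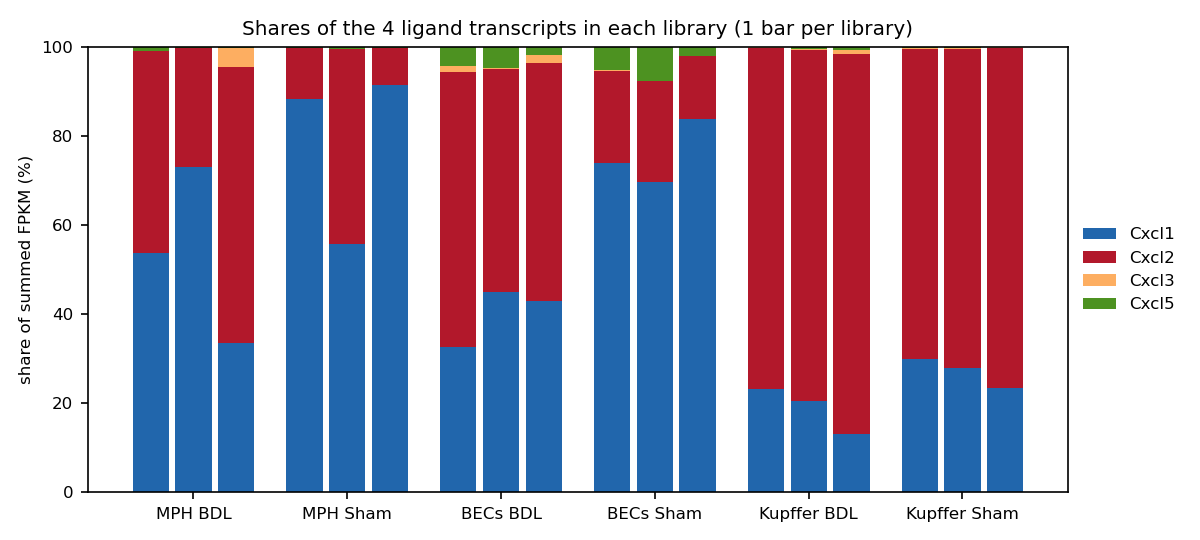
Share of each ligand in the summed FPKM of Cxcl1, Cxcl2, Cxcl3 and Cxcl5, with 1 bar per library. Cxcl2 takes the larger share in BDL BECs and Cxcl1 the larger share in Sham BECs, and Cxcl2 leads in all Kupffer libraries.

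The deposited FPKM divide by the length of all annotated exons of a gene, retained introns included, which was 3.44 times the length of the principal transcript for Cxcl3, 1.97 times for Cxcl1, 1.86 times for Cxcl2, 1.18 times for Cxcl5 and 1.00 times for Cxcr2. Levels of different genes were therefore also set side by side per principal transcript length. On that scale BDL BECs had 874 ± 201 FPKM of Cxcl2, 664 ± 123 of Cxcl1, 37.8 ± 20.2 of Cxcl5 and 28.5 ± 20.9 of Cxcl3. BDL Kupffer-like cells had 1018 ± 223 FPKM of Cxcl2, 268 ± 129 of Cxcl1, 9.49 ± 4.49 of Cxcl3 and 2.49 ± 1.87 of Cxcl5 (SD, n = 3 each). Cxcl3 and Cxcl5 thus stood at similar levels in BDL BECs, while on the deposited scale Cxcl5 averaged 31.9 ± 17.1 FPKM and Cxcl3 8.28 ± 6.07 FPKM there.

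Whether the response to BDL differed between cell types was tested as an interaction. With limma 0 of 15 tests were called, and 0 had an unadjusted p under 0.05. With voom on recovered reads 0 were called as well. The share of all tested genes called was 1.6% for MPH minus BECs, 0.404% for MPH minus Kupffer-like cells and 3.5% for BECs minus Kupffer-like cells. For Cxcl2 the log2 difference of the responses was 0.27 for MPH minus BECs (95% interval -0.79 to 1.33), 1.01 for MPH minus Kupffer-like cells (-0.10 to 2.13) and 0.75 for BECs minus Kupffer-like cells (-0.05 to 1.54). For Cxcr2 the BECs minus Kupffer-like difference was -0.75 (-1.87 to 0.37), but with a pseudocount of 0.1 it was 0.43. For Cxcl1 the BECs minus Kupffer-like interval was -2.32 to 0.32. These intervals leave room for differences of more than 1 log2 unit in each of the 3 genes, so alike responses were not shown. Without BECs BDL library 2, the one low in Cxcl3, the response of Cxcl3 was called as larger in BECs than in Kupffer-like cells (difference 1.96, adjusted p = 0.0392), against 1.13 with all libraries (adjusted p = 0.452).

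Across cell types, Cxcl5 was highest in BECs and Cxcr2 in BDL Kupffer-like cells, while Cxcl2 was not called as different between BECs and Kupffer-like cells. The Cxcl1 means ran from 338 ± 63 FPKM in BDL BECs and 298 ± 108 FPKM in Sham BECs through 136 ± 66 FPKM in BDL Kupffer-like cells and 114 ± 66 FPKM in BDL MPH to 54.2 ± 20.7 FPKM in Sham Kupffer-like cells and 52.6 ± 26.5 FPKM in Sham MPH. Only between Sham BECs and BDL Kupffer-like cells were neighbours in this order separated without overlap. The Cxcl2 order was BDL Kupffer-like cells at 546 ± 120 FPKM, BDL BECs at 469 ± 108, Sham Kupffer-like cells at 142 ± 34, BDL MPH at 84.1 ± 15.4, Sham BECs at 71.8 ± 13.3 and Sham MPH at 10.9 ± 6.1 (SD, n = 3 each). There BDL Kupffer-like cells overlapped with BDL BECs, and BDL MPH with Sham BECs, while the other neighbours did not overlap. Cxcl5 stood at 31.9 ± 17.1 FPKM in BDL BECs and 17.9 ± 9.6 in Sham BECs, and no library of another group came above 3.28 FPKM. Cxcr2 was highest in BDL Kupffer-like cells, at 16.8 ± 9.4 FPKM, without overlap with the next group, BDL MPH at 3.23 ± 2.05 FPKM.

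Among the BDL libraries, 3 ligands were lower in MPH than in BECs, with log2 differences of -1.72 ± 0.53 for Cxcl1 (adjusted p = 0.0283), -2.46 ± 0.28 for Cxcl2 (adjusted p = 0.000208) and -4.08 ± 0.59 for Cxcl5 (adjusted p = 0.000814, SE, n = 3 and 3). Here 46% of all tested genes were called. Against Kupffer-like cells, BDL MPH were lower in Cxcl2 (-2.67 ± 0.28, adjusted p = 0.000510) and Cxcr2 (-2.05 ± 0.44, adjusted p = 0.0113), beside 28.4% of all tested genes. BDL BECs were higher than BDL Kupffer-like cells in Cxcl5 (3.39 ± 0.59, adjusted p = 0.00329) and lower in Cxcr2 (-2.43 ± 0.44, adjusted p = 0.00402), beside 31.3% of all tested genes. The macrophage preparation thus carried more receptor transcript, and the duct cells more Cxcl5. The Cxcl2 levels of BDL BECs and BDL Kupffer-like cells differed by -0.22 (95% interval -0.86 to 0.42, adjusted p = 0.590). Cxcl1 differed by 1.44 ± 0.53 between BDL BECs and BDL Kupffer-like cells and was not called (adjusted p = 0.0716), but it was called under 4 of 11 other settings and without MPH BDL library 3 (adjusted p = 0.0393), a library that is not in the contrast but shares its estimate of spread. The Cxcl1 call between BDL MPH and BDL BECs was lost with no filter (adjusted p = 0.0618), without MPH BDL library 1 or 3 and without any 1 of the BECs BDL libraries (adjusted p = 0.0588 to 0.0915). Cxcl3, at -1.62 ± 0.85 between BDL MPH and BDL BECs, was not called (adjusted p = 0.151), but it was called with a common sum (-2.30, adjusted p = 0.031), with all 18 libraries in 1 model (adjusted p = 0.048), without MPH BDL library 3 (adjusted p = 0.0304) and without BECs BDL library 2 (adjusted p = 0.0411). With the common sum the median of all genes in that comparison was -0.83, and 9401 of 14210 were called, against 6538 as deposited.

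Among the Sham libraries the same 3 ligands were lower in MPH than in BECs, by -2.58 ± 0.46 for Cxcl1 (adjusted p = 0.00119), -2.72 ± 0.35 for Cxcl2 (adjusted p = 0.000171) and -3.89 ± 0.31 for Cxcl5 (adjusted p = 9.86e-06), where 58.3% of all tested genes were called. Sham MPH were also lower than Sham Kupffer-like cells in Cxcl2 (-3.69 ± 0.35, adjusted p = 3.96e-05) and Cxcr2 (-1.34 ± 0.30, adjusted p = 0.00474), beside 56.8% of all tested genes. Sham BECs were higher than Sham Kupffer-like cells in Cxcl1 (2.44 ± 0.46, adjusted p = 0.00234) and Cxcl5 (3.86 ± 0.31, adjusted p = 1.42e-05) and lower in Cxcr2 (-1.68 ± 0.30, adjusted p = 0.00161), beside 43.9% of all tested genes. Cxcl2 differed there by -0.96 ± 0.35 (adjusted p = 0.0536, SE, n = 3 and 3) and was called under 4 of 12 other settings and without MPH Sham library 2 or 3 (adjusted p = 0.0165 to 0.0167).

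Levels set against MPH depend on the scale of the libraries, since the size behind the deposited values was 0.517 to 0.741 of the recovered reads in MPH and 0.934 to 1.22 of them in the other cell types. Scaled to a common sum, the median of all genes moved to -0.84 for Sham MPH minus BECs and -0.92 for Sham MPH minus Kupffer-like cells. Among the BDL libraries it moved to -0.83 for MPH minus BECs and -0.54 for MPH minus Kupffer-like cells. These shifts have the same direction as the called MPH differences in Sham and in BDL, so they give no check on their sign. Cxcl1 in Sham MPH minus Kupffer-like cells was -0.14 as deposited (adjusted p = 0.809) and -1.35 under the common sum (adjusted p = 0.0144), beside a median over all genes of -0.92. Among the BDL minus Sham comparisons, the common sum moved the median of all genes to -0.24 in Kupffer-like cells, where Cxcl2 was then at 1.61 and Cxcr2 at 1.79.

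Other genes followed the members over the 18 libraries, as Pearson correlations of log2(FPKM + 1) among 15594 genes. The libraries share cell type and treatment, so these values mainly describe group patterns. Closest to Cxcl2 were Lilr4b (r = 0.976), Lilrb4a (r = 0.954) and Plek (r = 0.939). Lilrb4a encodes an inhibitory receptor of myeloid cells, Plek the protein pleckstrin of platelets and leukocytes, and Lilr4b and Lilrb4a are close paralogs between which reads may be split. Closest to Cxcr2 were Sirpb1c (r = 0.946) and Sirpb1b (r = 0.939), again close paralogs, and Cd177 (r = 0.923), which encodes a neutrophil surface glycoprotein. Cxcl5 was closest to the basement membrane collagen genes Col4a6 (r = 0.981) and Col4a5 (r = 0.971) and to Ptpn13 (r = 0.968). Cxcl1 was closest to Fkbp10, which encodes a collagen chaperone (r = 0.912), Mgp (r = 0.909) and Tmem119 (r = 0.909), and Cxcl3 to Mir7678, Rpl12 and Chst11 (r = 0.857 to 0.860). After the mean of each of the 6 groups was subtracted, the 3 closest genes of each member had r between 0.797 and 0.908, and Col4a6 (r = 0.906 with Cxcl5) was the gene that stayed among them. Between the members themselves, the group-subtracted r ran from -0.52 for Cxcl1 with Cxcl3 to 0.34 for Cxcl3 with Cxcr2 over the 10 pairs. It was -0.35 for Cxcl1 with Cxcr2, -0.32 for Cxcl3 with Cxcl5, -0.17 for Cxcl1 with Cxcl2 and 0.11 for Cxcl2 with Cxcl3.

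Cytokines, receptors and NF-kappa-B genes that act upstream of these chemokines were followed as a list of 20, which includes the feedback inhibitors Nfkbia and Tnfaip3. In BECs 4 of 19 tested rose and none fell, beside 7.66% of all tested genes called in either direction, with a median difference of 0.34 against -0.03 over all tested genes. The 4 were Il1a, Il1b, Il17ra and Tnfaip3. Tnfaip3, which encodes the NF-kappa-B inhibitor A20, averaged 169 ± 24 FPKM in BDL BECs and 87.5 ± 12.9 FPKM in Sham BECs (SD, n = 3 each, adjusted p = 0.0319). Il1a, which encodes interleukin 1 alpha, averaged 107 ± 33 FPKM in BDL BECs and 19.6 ± 2.8 FPKM in Sham BECs (adjusted p = 0.00998). Il1b, which encodes interleukin 1 beta, averaged 362 ± 132 FPKM in BDL BECs and 85.6 ± 8.6 FPKM in Sham BECs (adjusted p = 0.0165). Il17ra, a subunit of the interleukin 17 receptor, averaged 12.9 ± 2.3 FPKM in BDL BECs and 5.58 ± 0.78 FPKM in Sham BECs (SD, n = 3 each, adjusted p = 0.0188). In Kupffer-like cells 2 of 19 rose, beside 3.88% of all tested genes called, Il17ra (20.5 ± 3.0 FPKM after BDL and 10.2 ± 1.3 after Sham, adjusted p = 0.0419) and Tlr2, a receptor for bacterial lipoproteins (63.2 ± 6.6 FPKM after BDL and 36.8 ± 0.9 after Sham, adjusted p = 0.0489). The median there was 0.42, against 0.03 over all tested genes. In MPH 0 of 18 were called and 6 had an unadjusted p under 0.05, with a median of 0.44 against -0.06 over all tested genes.

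Chemokine transcripts are short-lived, and 7 RNA-binding proteins that act on their stability were followed as a list. In Kupffer-like cells 1 of 7 rose, Arid5a, which stabilises inflammatory transcripts (6.13 ± 0.88 FPKM after BDL and 2.79 ± 0.65 FPKM after Sham, adjusted p = 0.0477). Of all tested genes 3.88% were called there. In BECs 0 of 7 were called and 0 had an unadjusted p under 0.05. In MPH 0 of 7 were called and 3 had an unadjusted p under 0.05, the smallest for Zc3h12a, which encodes an RNase that degrades cytokine transcripts (10.3 ± 2.3 FPKM after BDL and 4.67 ± 1.32 FPKM after Sham, SD, n = 3 each, adjusted p = 0.0881). Arid5a in MPH averaged 4.24 ± 3.61 FPKM after BDL and 0.495 ± 0.102 FPKM after Sham, with a log2 difference of 1.57 that was not called (adjusted p = 0.134). It is among those 3, and it passed the filter in MPH through its BDL libraries alone. The medians were 0.17 in Kupffer-like cells, -0.03 in BECs and 0.37 in MPH. Over all tested genes the median was 0.03 in Kupffer-like cells, -0.03 in BECs and -0.06 in MPH.

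Downstream of the receptor, 4 of 14 signalling genes rose in BECs and none fell, beside 7.66% of all tested genes called, with a median of 0.63 against -0.03 over all tested genes. Vav1, a Rac activator of blood cells, averaged 14.7 ± 2.5 FPKM in BDL BECs and 4.83 ± 0.22 FPKM in Sham BECs (adjusted p = 0.00930). Fgr, a Src family kinase of myeloid cells, averaged 7.56 ± 1.07 FPKM in BDL BECs and 2.56 ± 0.65 FPKM in Sham BECs (adjusted p = 0.0146). Pik3r5, the regulatory subunit of phosphoinositide 3-kinase gamma, averaged 11.4 ± 5.4 FPKM in BDL BECs and 2.07 ± 0.44 FPKM in Sham BECs (adjusted p = 0.0188). In Kupffer-like cells Pik3r5 rose (22.1 ± 2.9 FPKM after BDL and 11.1 ± 1.9 after Sham, adjusted p = 0.0457) and the phospholipase gene Plcb3 fell (10.8 ± 1.0 FPKM after BDL and 18.6 ± 0.6 after Sham, SD, n = 3 each, adjusted p = 0.0410). These were the 2 of 14 called in Kupffer-like cells, beside 3.88% of all tested genes, and the list median there was 0.21. In MPH 0 of 14 were called, 0 had an unadjusted p under 0.05, and the median was -0.01. Vav1, Fgr, Pik3r5 and Rac2, the 4 called in BECs, are genes of blood cells, and in the same BECs libraries neutrophil and monocyte markers were higher after BDL (326 to 520 FPKM of neutrophil markers after BDL and 53.9 to 153 FPKM after Sham, 56.1 to 212 FPKM of monocyte markers after BDL and 9.57 to 21.1 FPKM after Sham). Their part in these counts was not tested.

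Of 16 genes for adhesion and chemoattractant sensing during neutrophil recruitment, 10 of 16 rose in BECs and none fell, beside 7.66% of all tested genes called, with a median of 1.33. Itgam, the integrin CD11b of myeloid cells, averaged 6.37 ± 0.62 FPKM in BDL BECs and 1.09 ± 0.14 FPKM in Sham BECs (adjusted p = 0.00440). Fpr1, the formyl peptide receptor of neutrophils, averaged 8.44 ± 2.20 FPKM in BDL BECs and 1.13 ± 0.47 FPKM in Sham BECs (SD, n = 3 each, adjusted p = 0.00951). In Kupffer-like cells 1 of 16 rose, C5ar1, the receptor for complement C5a (65.3 ± 6.2 FPKM after BDL and 16.4 ± 0.6 FPKM after Sham, adjusted p = 0.0208), and the list median was 0.66. Of all tested genes 3.88% were called there. In MPH 0 of 13 were called and 4 had an unadjusted p under 0.05, C5ar1 among them (19.7 ± 2.5 FPKM after BDL and 5.67 ± 3.15 FPKM after Sham, adjusted p = 0.0730). The list median in MPH was 0.53. Itgam, Csf3r and Fpr1 are myeloid genes, and Csf3r is itself among the 12 genes of the neutrophil marker sum. The part of neutrophils in these counts was not tested.

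Of the other ligands and receptors of the same axis, Ackr1, which encodes a scavenger that binds CXC chemokines without signalling, fell in Kupffer-like cells (2.28 ± 0.82 FPKM after BDL and 15.6 ± 1.6 FPKM after Sham, adjusted p = 0.0208). Ackr1 was the only call of that list. It was 1 of 3 tested in Kupffer-like cells (3.88% of all tested genes called), beside 0 of 3 in MPH (1.57%) and 0 of 2 in BECs (7.66%). In MPH all 3 tested genes had an unadjusted p under 0.05, and in BECs 1 of 2 did. Cxcr1, the sister receptor, stayed at or under 1.40 FPKM, its highest value being in BDL library 3 of Kupffer-like cells. Cxcl15, the ligand between Cxcl3 and Cxcl1 in the cluster, had at most 3 reads in any library. The list medians were -1.38 in MPH, 0.54 in BECs, and -0.07 in the Kupffer-like cells. Sinusoidal endothelial markers were lower after BDL in the same Kupffer-like libraries, summing to 351 to 961 FPKM, against 1283 to 1561 FPKM after Sham. Their part in the Ackr1 difference was not tested.

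CXC chemokines that attract other leukocytes did not share one direction. In BECs 3 of 12 rose and 2 fell, beside 7.66% of all tested genes called. Cxcl14 (20.7 ± 4.8 FPKM after BDL and 4.01 ± 1.55 after Sham, adjusted p = 0.0123) and the receptor gene Cxcr4 (87.5 ± 4.2 FPKM after BDL and 36.1 ± 6.1 after Sham, adjusted p = 0.0125) rose. Cxcl12, the ligand of CXCR4, fell (19.9 ± 3.2 FPKM after BDL and 47.7 ± 6.2 after Sham, SD, n = 3 each, adjusted p = 0.0146). In Kupffer-like cells 2 of 12 fell and none rose, beside 3.88% of all tested genes called. Both that fell are interferon-induced ligands that draw T cells. Cxcl9 averaged 3.68 ± 1.41 FPKM after BDL and 31.0 ± 6.7 FPKM after Sham (adjusted p = 0.0208), and Cxcl10 32.6 ± 5.8 FPKM after BDL and 107 ± 22 FPKM after Sham (adjusted p = 0.0270). In MPH 0 of 9 were called and 4 had an unadjusted p under 0.05. The medians were 0.48 in BECs, 0.06 in Kupffer-like cells and -0.34 in MPH.

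Immediate early genes, which cells also switch on while a tissue is being dissociated, were lower in BDL BECs, where Cxcl2 was higher. Of 15 such genes 5 fell and none rose, beside 7.66% of all tested genes called, with a median of -0.72, and their FPKM summed to 7120 to 9489 after BDL and 13052 to 15229 after Sham. Atf3 averaged 897 ± 169 FPKM in BDL BECs and 1911 ± 225 FPKM in Sham BECs (adjusted p = 0.0303), and Jun 764 ± 141 FPKM in BDL BECs and 1547 ± 66 FPKM in Sham BECs (SD, n = 3 each, adjusted p = 0.0307). In Kupffer-like cells 0 of 15 were called and 1 had an unadjusted p under 0.05, with a median of 0.14. In MPH 0 of 14 were called and 4 had an unadjusted p under 0.05, with a median of 0.50. The part of dissociation in the chemokine values was not tested.

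Markers of other cell types moved in the same comparisons. Of the monocyte markers 2 of 4 tested rose in MPH (1.57% of all tested genes called), 3 of 6 tested in BECs (7.66%), and 2 of 6 tested in Kupffer-like cells (3.88%). Ly6c2 was at -0.08 in MPH and -0.41 in Kupffer-like cells on the log2 scale and was not called. F13a1, which encodes coagulation factor XIII subunit A of monocytes and macrophages, was among those called in each, although in MPH it passed the filter through its BDL libraries alone (3.75 ± 1.04 FPKM after BDL and 0.199 ± 0.033 FPKM after Sham). It stood at 14.2 ± 3.6 FPKM in BDL Kupffer-like cells and 2.48 ± 0.71 FPKM in Sham Kupffer-like cells (SD, n = 3 each, adjusted p = 0.0236). Sinusoidal endothelial markers fell, 7 of 8 in BECs and 4 of 8 in Kupffer-like cells, with 0 of 8 called in MPH, where 1 had an unadjusted p under 0.05. Hepatocyte markers summed to 1176 to 3655 FPKM in BDL Kupffer-like cells and 445 to 1019 FPKM in Sham Kupffer-like cells, although 0 of 11 were called and 7 had an unadjusted p under 0.05. In BECs they summed to 158 to 624 FPKM after BDL and 1441 to 3534 FPKM after Sham, with 1 of 11 called as lower and 9 at an unadjusted p under 0.05. T and NK cell markers summed to 19.3 to 73.0 FPKM in BDL and 79.1 to 114 FPKM in Sham Kupffer-like cells (0 of 7 called, 6 at an unadjusted p under 0.05). B and plasma cell markers summed to 22.4 to 110 FPKM in BDL and 168 to 209 FPKM in Sham Kupffer-like cells, with 1 of 5 called as lower. Stellate cell markers summed to 156 to 318 FPKM in BDL and 62.0 to 135 FPKM in Sham MPH (0 of 9 called, 3 at an unadjusted p under 0.05), and to 158 to 233 FPKM in BDL and 40.0 to 100.2 FPKM in Sham Kupffer-like cells (1 of 9 called). None of these sums overlapped between BDL and Sham. Neither did the 10 biliary markers in MPH, at 71.4 to 75.4 FPKM after BDL and 26.2 to 52.6 FPKM after Sham. There 1 of 6 tested rose (1.57% of all tested genes called) and 3 had an unadjusted p under 0.05. Krt7, the gene called (adjusted p = 0.0481, limma), passed the filter through its BDL libraries alone (0.135 ± 0.032 FPKM after Sham). In BECs the biliary markers were lower after BDL (2670 to 3069 FPKM, against 3613 to 4045 FPKM after Sham). The stellate cell and fibroblast markers were highest in BECs, where they overlapped, at 835 to 1499 FPKM after BDL and 574 to 994 FPKM after Sham. There 0 of 9 were called and 4 had an unadjusted p under 0.05. Of the Kupffer cell markers 0 were called in any of the 3 cell types, and 1 of 10 tested in MPH, 0 of 8 tested in BECs, and 1 of 10 tested in Kupffer-like cells had an unadjusted p under 0.05. The part of these cells in the chemokine levels and differences was not tested.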

How the data were processed

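Polyadenylated RNA libraries of 18 samples were grouped by the cell type and treatment labels. Per the submitters' processing notes, the tools were CASAVA 1.8, fastp, HISAT2 2.0.5, featureCounts 1.5.0-p3 and DESeq2 1.20.0, with GRCm38 (mm10). The authors deposited FPKM values per gene. How multi-mapped reads and strand were counted is not given in the sources used here.

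Whole reads were recovered from FPKM and GENCODE M21 exon-union lengths: 52557 of 53636 genes (98.0%) gave whole reads within 0.02 in every library. Values were analysed as log2(FPKM + 1) with limma 3.58.1 in R 4.3.3 (eBayes with trend and robust, 2-sided, Benjamini-Hochberg over every gene that reached an FPKM of 1 in 3 or more of the libraries compared), and the pipeline was tested on simulated data. BDL and Sham were compared within a cell type, responses as an interaction over 12 libraries, and cell types over 9 libraries of 1 treatment.

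The members, the gene lists and the tests were chosen with earlier results of these data known. All members were named, and per list up to 3 called genes with the smallest p, or the 2 smallest p where none was called, and per member the 3 genes with the highest r. The text shows part of these. Genes given outside this rule (Ly6g, Cxcr1, Cxcl15, Csf3 and Il17a) were chosen after their values were seen. Titles of 3 MPH and Kupffer pairs share a number. Deviations from the group mean correlated within these pairs (r = 0.213 to 0.324, over genes). No r was computed for pairs with different numbers, so these values cannot show that the numbers mark pairs. The numbers were taken as pairs only to try a replicate block (statmod 1.5.0). Other settings were pseudocounts, filters, scalings, voom on recovered reads, 1 model over 18 libraries and leaving out each library.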

Additional observations from a re-analysis of the deposited data

How the results depend on the processing

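With 3 libraries per group, calls near the threshold depended on the setting. Of the 5 genes, 1 was called for BDL minus Sham in MPH, but 0 with no filter on level, 0 with scaling to recovered reads and 2 with all 18 libraries in 1 model. The model over 18 libraries also called far more of all tested genes in MPH than the 194 called with the MPH libraries alone. In BECs 2 were called, but 1 with no filter and 1 at an FPKM of at least 5. In Kupffer-like cells 2 were called, but 1 with a pseudocount of 0.1, 1 with 0.01, 1 with a common sum, 1 with recovered reads and 0 with no filter. With no filter 0 of 38269 tested genes were called there. For Sham MPH minus Kupffer-like cells 2 were called, but 1 at an FPKM of at least 5. Some settings gave more calls. Over the other settings the counts ran from 1 to 3 in BECs, 0 to 3 in Kupffer-like cells and 1 to 3 for Sham MPH minus Kupffer-like cells. They ran from 2 to 4 for Sham BECs minus Kupffer-like cells and for BDL MPH minus BECs. For BDL BECs minus Kupffer-like cells they ran from 2 to 3. More genes are tested without the filter, and low members leave the test with the stricter one. For the other shifts the cause was not tested.

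Leaving out 1 library at a time gave 0 to 1 calls in MPH, 1 to 1 in BECs and 0 to 3 in Kupffer-like cells. It gave 0 to 1 for the response difference BECs minus Kupffer-like cells, 2 to 3 for Sham MPH minus BECs and 2 to 4 for Sham BECs minus Kupffer-like cells. It gave 2 to 3 for BDL MPH minus BECs and 2 to 3 for BDL BECs minus Kupffer-like cells. A left-out library leaves 2 in its group. Over all tested genes, leaving out 1 library gave 8 to 77 calls in MPH, against 194 with all libraries. It gave 86 to 1033 in BECs, against 1040, and 0 to 2272 in Kupffer-like cells, against 494. For the response difference BECs minus Kupffer-like cells it gave 38 to 1773, against 520. The counts of members are to be read beside these.

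Signs turned in 58 of the alternative values for single genes, 0 of which involved a called value. For the response difference MPH minus BECs, Cxcl5 was 0.63 with a pseudocount of 0.1, 0.94 with 0.01 and 0.92 with voom. Cxcl3 was 1.28 with 0.01 and 0.88 with voom. Cxcr2 was -0.37 with 0.1, -0.67 with 0.01, -0.44 with a common sum, -0.14 with quantile normalization, -0.35 with recovered reads and -0.81 with voom. For MPH minus Kupffer-like cells, Cxcl3 was 0.69 with 0.1, 2.82 with 0.01 and 2.43 with voom. Cxcr2 was 0.062 with 0.1, 0.31 with 0.01 and 0.19 with voom. Cxcl1 was 0.36 with a common sum, 0.34 with quantile normalization, 0.12 with recovered reads and 0.038 with the title number as replicate block. For BECs minus Kupffer-like cells, Cxcr2 was 0.43 with 0.1, 0.98 with 0.01 and 0.99 with voom. For Sham MPH minus Kupffer-like cells, Cxcl5 was 0.086 with 0.1, 0.85 with 0.01, 0.20 with quantile normalization and 0.81 with voom. For BDL MPH minus BECs, Cxcr2 was -0.36 with a common sum and -0.17 with recovered reads. For BDL BECs minus Kupffer-like cells, Cxcl2 was 0.085 with a common sum and 0.039 with quantile normalization. Without 1 library, the response difference MPH minus BECs ranged over -0.091 to 0.65 for Cxcl2, -0.75 to 0.14 for Cxcl5 and -0.33 to 0.37 for Cxcr2. MPH minus Kupffer-like cells ranged over -0.65 to 0.34 for Cxcl1 and -0.997 to 0.34 for Cxcl3, and BECs minus Kupffer-like cells over -1.001 to 0.097 for Cxcl5. Sham MPH minus Kupffer-like cells ranged over -0.45 to 0.37 for Cxcl1 and -0.16 to 0.044 for Cxcl5, and BDL MPH minus Kupffer-like cells over -0.77 to 0.20 for Cxcl1.

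The replicate block was fitted for the response difference MPH minus Kupffer-like cells, with 0 calls, and for the Sham comparisons, with 3 calls for MPH minus BECs, 2 for MPH minus Kupffer-like cells and 3 for BECs minus Kupffer-like cells. It changed no call. The other comparisons share fewer than 2 numbers, so it was not run there.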

Other observations

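Csf3 and Il17a, 2 further genes of neutrophil biology, were picked out after their values were seen. Csf3, which encodes granulocyte colony-stimulating factor, had 12.0, 6.90 and 10.5 FPKM in BDL BECs and 2.03, 1.41 and 4.89 FPKM in Sham BECs, without overlap, as held with BDL higher for 13% of all tested genes (adjusted p = 0.0468, limma). In Kupffer-like cells Csf3 had 4.45, 2.42 and 1.17 FPKM after BDL and 0.386, 0.181 and 0.0700 FPKM after Sham, also without overlap, beside 16.7% of all tested genes, and it passed the filter through its BDL libraries alone (adjusted p = 0.0669). Il17a, which encodes interleukin 17A of T cells, had 17.1, 14.9 and 2.24 FPKM in BDL BECs and 0.430, 0.579 and 1.16 FPKM in Sham BECs (adjusted p = 0.0705). The 7 T and NK cell markers in BECs summed to 19.8 to 41.0 FPKM after BDL and 14.1 to 18.1 FPKM after Sham, and their part in the Il17a values was not tested.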
